A study of Mus musculus with 6 samples.

Results

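Vip, Nms, Grp, Vipr2, Prokr2 and Rgs16 are the peptide, receptor and G-protein regulator genes by which neurons of the suprachiasmatic nucleus, the circadian pacemaker of the hypothalamus, signal to each other. They were taken as the rows of the deposited table with these 6 symbols, out of 18204 genes, and all 6 were present. The table came from Drop-seq, a droplet method that counts captured 3′ transcript ends as unique molecular identifiers (UMIs) cell by cell, so 1 UMI stands for 1 captured molecule. Hypothalamus came from C57BL/6J mice aged 8 weeks in 2 genotypes, with 3 libraries each. The KO animals lacked IDOL, a ubiquitin ligase that targets lipoprotein receptors and is the product of Mylip, and the WT animals were wild type. The labels did not say whether a library came from 1 animal or from several, which part of Mylip was deleted, or at what time of day tissue was taken, so p-values measure the spread between libraries.

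In the suprachiasmatic nucleus a ventral core receives light signals from the retina and a dorsal shell surrounds it. Vasoactive intestinal peptide (Vip) and gastrin-releasing peptide (Grp) are known as peptides of the core, and neuromedin S (Nms) as a peptide of a broader set of pacemaker neurons. VIP released in the nucleus acts on VPAC2, the receptor encoded by Vipr2, which couples to Gs and cyclic AMP. Prokr2 encodes the receptor for prokineticin 2, an output peptide of the nucleus. Rgs16 encodes a GTPase-accelerating protein that shortens signalling through Gi proteins. Levels of several of these transcripts are known to follow the time of day.

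The genes lie on different chromosomes or far apart (GENCODE M21, GRCm38). Vip is on chromosome 10 (5639218 to 5647617, plus strand), Vipr2 on chromosome 12 (116077726 to 116146261, plus strand) and Prokr2 on chromosome 2 (132337733 to 132385447, minus strand). Nms (38939149 to 38950276) and Rgs16 (153740349 to 153745468) are both on the plus strand of chromosome 1. The 250 bases before the RefSeq start (GRCm38.p6) are shown for Vip, Nms, Vipr2 and Prokr2, the 4 genes whose levels were most alike across the 31 clusters of at least 50 cells. Both strands were searched for 4 motifs, and capitals mark every match. The core of a cyclic AMP response element was searched as TGACGT. The TATA box was searched with the letters TATAAA. The CCAAT box was searched by the letters of its name, and the E-box bound by CLOCK and BMAL1 was searched as CACGTG.
Vip, chr10:5638968-5639217, plus strand: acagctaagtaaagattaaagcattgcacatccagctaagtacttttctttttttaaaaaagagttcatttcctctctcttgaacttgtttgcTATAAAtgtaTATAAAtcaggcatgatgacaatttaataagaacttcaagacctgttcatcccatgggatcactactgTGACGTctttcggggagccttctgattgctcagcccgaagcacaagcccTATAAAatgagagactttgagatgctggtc
Nms, chr1:38938899-38939148, plus strand: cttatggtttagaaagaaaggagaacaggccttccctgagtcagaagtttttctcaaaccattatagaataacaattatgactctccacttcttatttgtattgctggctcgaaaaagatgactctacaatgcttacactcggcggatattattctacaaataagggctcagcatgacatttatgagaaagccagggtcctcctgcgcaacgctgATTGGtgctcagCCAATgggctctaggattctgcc
Vipr2, chr12:116077476-116077725, plus strand: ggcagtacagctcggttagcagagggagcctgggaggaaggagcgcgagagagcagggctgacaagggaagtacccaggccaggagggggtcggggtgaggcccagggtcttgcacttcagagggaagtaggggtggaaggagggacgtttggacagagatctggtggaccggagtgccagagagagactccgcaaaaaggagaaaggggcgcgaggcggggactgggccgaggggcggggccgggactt
Prokr2, chr2:132385448-132385697, minus strand: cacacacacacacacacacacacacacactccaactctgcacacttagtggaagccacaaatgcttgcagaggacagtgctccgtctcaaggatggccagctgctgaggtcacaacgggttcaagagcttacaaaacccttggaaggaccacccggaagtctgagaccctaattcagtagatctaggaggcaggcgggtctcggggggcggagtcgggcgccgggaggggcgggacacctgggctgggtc
TGACGT stood once in the Vip window, at positions -79 to -74 from the start, and in none of the other windows shown. TATAAA stood in the Vip window at -157, -147 and -30 (first base), and CCAAT in the Nms window at -35 and -23. Neither CACGTG nor the full TGACGTCA was in any of the 4 windows. Of 27025 RefSeq windows of this length, 6.56% held TGACGT, 1.62% TGACGTCA, 6.05% CACGTG, 13.0% TATAAA and 34.5% CCAAT. These matches describe letters and were not tested for function.

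The libraries gave 2331, 2929 and 2863 barcodes in KO1, KO2 and KO3 and 2744, 1410 and 1717 in WT1, WT2 and WT3. Of these, 9329 passed as cells, with 2452645 to 2756878 UMIs in a KO library and 1500298 to 3647575 in a WT library. Median UMIs per neuron were 1380 ± 370 in KO and 1400 ± 204 in WT (SD, n = 3 libraries each, exact permutation p = 1.0, two-sided). Mylip had 2, 0 and 0 UMIs in KO1, KO2 and KO3, against 68, 27 and 43 in WT1, WT2 and WT3, so the deleted gene matched the labels. Only 3 barcodes occurred in more than 1 library. Cells were clustered without the 6 genes, and 3093 cells carried neuron markers. Of these, 461 cells in 2 clusters carried suprachiasmatic markers other than the 6 genes and are called suprachiasmatic-like. A cluster named n2 (413 cells, 8 of 10 markers, including Lhx1, Six6, Six3, Rora and Syt10) was led by Avp, the vasopressin gene. A small cluster named n14 (48 cells, 5 of 10 markers, Lhx1, Six6, Six3, Syt10 and Rora) had Lhx1, Synpr and Penk among its leading genes, and both were GABAergic. Suprachiasmatic-like cells numbered 115, 105 and 33 in KO1, KO2 and KO3, against 117, 60 and 31 in WT1, WT2 and WT3. They made up 15 ± 7.24% of neurons in KO and 14.1 ± 3.85% in WT (exact permutation p = 0.9, two-sided). KO3 and WT3 thus gave about 30 such cells each, and values from them rest on few cells.

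All 6 transcripts were found chiefly in neurons, and 5 of them chiefly in the suprachiasmatic-like cells. Vip had 1473 UMIs, 99.0% of them in neurons and 86.6% in suprachiasmatic-like cells. Nms had 169 UMIs, all in neurons, and 94.1% in suprachiasmatic-like cells. Grp was the exception, with 94.2% of 156 UMIs in neurons but 32.7% in suprachiasmatic-like cells. Vipr2 had 200 UMIs (81.0% in suprachiasmatic-like cells) and Prokr2 had 265 (76.2%). Of 568 Rgs16 UMIs, 79.8% were in neurons and 62.0% in suprachiasmatic-like cells. The clusters were drawn from these same cells, so these shares are a description and carry no test.

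The share of cells with a UMI gave the same order of cell types. Vip was found in 13.0% of suprachiasmatic-like cells (95% exact binomial interval 10.1 to 16.4%), in 0.532% of other neurons and in 0.157% of oligodendrocytes, which should lack it. For Nms these shares were 19.3% (15.8 to 23.2%), 0.266% and 0 of 1274 oligodendrocytes, where a limit of 3 counts allows a share of up to 0.235% (exact upper bound 0.289%). Grp was found in 3.25% (1.83 to 5.31%) of suprachiasmatic-like cells and 1.56% of other neurons. The 3 peptides thus differed in how far they spread beyond the suprachiasmatic-like cells, Grp most and Nms least. Vipr2 was found in 25.4% (21.5 to 29.6%) of suprachiasmatic-like cells against 0.836% of other neurons, and Prokr2 in 27.3% (23.3 to 31.6%) against 1.67%. Rgs16 was the most widespread, in 40.1% (35.6 to 44.8%) of suprachiasmatic-like cells, 3.12% of other neurons and 0.863% of oligodendrocytes. The share was higher in suprachiasmatic-like cells than in other neurons in each of the 6 libraries for every one of the 6 genes. Median depth was 1256 UMIs in suprachiasmatic-like cells, 1500 in other neurons and 1077 in oligodendrocytes. With each cell thinned to 1000 UMIs, which left 293 suprachiasmatic-like cells and 1671 other neurons, the shares were 15.7% against 0.359% for Vip, 15% against 0.0598% for Nms and 3.75% against 1.32% for Grp. For Vipr2 they were 21.5% against 0.359%, for Prokr2 23.2% against 0.958% and for Rgs16 32.8% against 1.86%. Intervals and limits on shares cover counting error only.

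**Figure D1:**
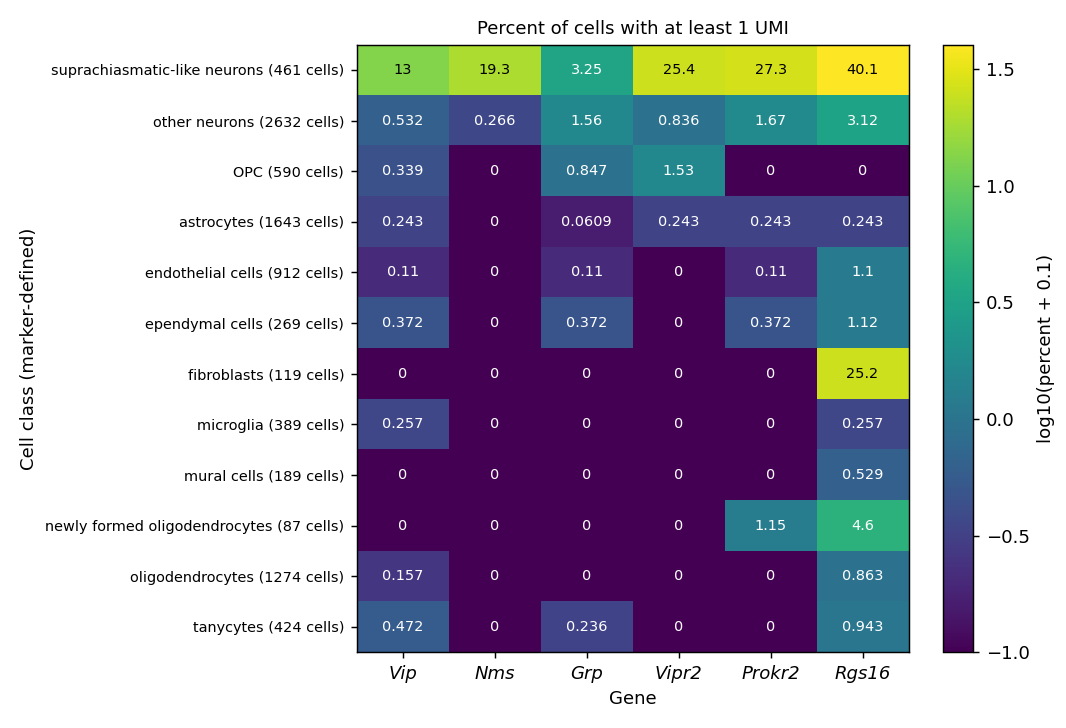
Percent of cells with at least 1 UMI of each gene (columns) in each marker-defined cell class of at least 50 cells (rows), with colour on a log10 scale. The row of suprachiasmatic-like neurons is highest for every gene, and fibroblasts stand out for Rgs16 at 25.2%.

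Outside neurons, Rgs16 in fibroblasts and Vipr2 and Grp in oligodendrocyte precursors (OPC) stood above the other classes. Rgs16 had 58 UMIs in 30 of 119 fibroblasts, a share of 25.2% (17.7 to 34%). Of these UMIs, 18 were in KO1, 0 in KO2 and 37 in KO3, against 0, 1 and 2 in WT1, WT2 and WT3. The fibroblasts behind them numbered 22, 6 and 71 in KO1, KO2 and KO3, against only 5, 11 and 4 in WT1, WT2 and WT3. Shares with a UMI were 31.8%, 0 and 29.6% in KO, against 0, 9.09% and 25.0% in WT, in the same order. Vipr2 had 9 UMIs in 9 of 590 OPC (1.53%, 0.70 to 2.88%), while oligodendrocytes held 0. Grp had 5 UMIs in 5 OPC (0.847%, 0.276 to 1.97%), in 5 of 6 libraries, against 0.372% or less in the other non-neuronal classes of at least 50 cells. Prokr2 had 1 UMI in each of endothelial cells, ependymal cells and newly formed oligodendrocytes, and 4 in astrocytes. Among other neurons, Grp was in 12 of 427 cells of the cluster n1, led by Trh, Nts and Tac2, and in 4 of 77 cells of the cluster n11, led by Ghrh and Gal. It was also in 5 of 20 cells of the cluster n16, led by Crym and Neurod2, whose cells all came from KO2.

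Most Vip UMIs lay in a small number of cells that each held many. Of 88 cells with a Vip UMI, 36 had at least 10 and these held 90.4% of all Vip UMIs. The richest cell had 135 (9.16% of all Vip UMIs) and 10 cells held 50% of the UMIs. For Grp, with far fewer UMIs in all, 9 cells held 50% and the richest cell 8.97%. Nms, in 96 cells, reached at most 9 UMIs in a cell, Vipr2 at most 4, Prokr2 6, Rgs16 12 and Grp 14. The median over cells with a UMI was 5.5 for Vip and 1.0 for each of the others. Cells with at least 10 Vip UMIs numbered 8, 10 and 1 in KO1, KO2 and KO3, against 7, 8 and 2 in WT1, WT2 and WT3. In every library they held between 82.4% and 98.9% of its Vip. The single such cell of KO3 had 104 Vip UMIs, or 88.1% of that library's Vip, and lay outside the suprachiasmatic-like cells, in the small neuron cluster n15, whose leading genes included the astrocyte genes Apoe, Agt and Slc1a3.

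**Figure D2:**
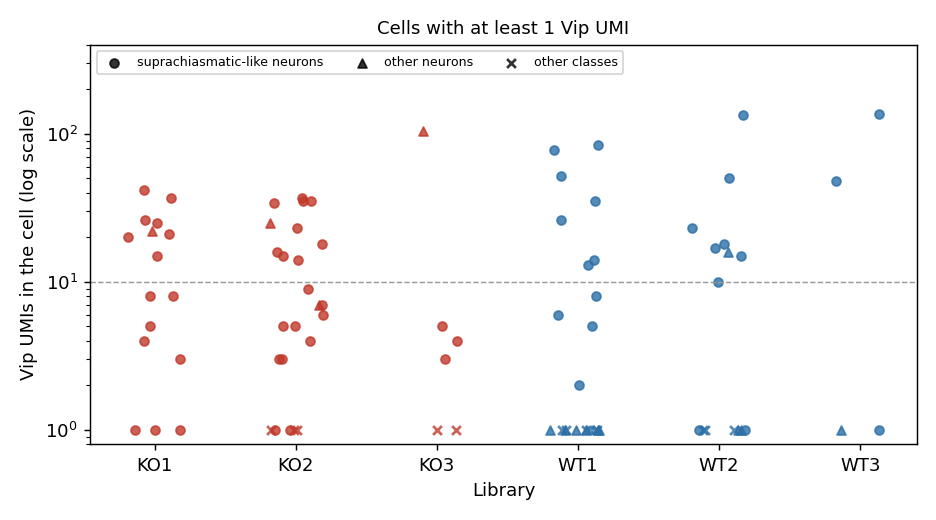
Vip UMIs (log axis) in each cell with at least 1, by library, KO in red and WT in blue. Circles are suprachiasmatic-like neurons, triangles other neurons and crosses other classes, and the dashed line is at 10 UMIs. The richest suprachiasmatic-like cell had 42 UMIs among the KO libraries and 135 among the WT libraries. The richest cell of the KO libraries, with 104 UMIs in KO3, was among the other neurons.

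The 2 suprachiasmatic-like clusters held different members, but their number depended on the clustering. With at least 500 genes per cell there were again 2 such clusters. With doublets kept there was 1 (458 cells), and at Leiden resolution 0.5 there was 1 (457 cells). The values below are from the main clustering. Vip was found in 19 of 48 n14 cells (39.6%, 25.8 to 54.7%) and in 41 of 413 n2 cells (9.93%, 7.22 to 13.2%), and Grp in 13 n14 cells (27.1%, 15.3 to 41.8%) and 2 n2 cells (0.484%, 0.0587 to 1.74%). Nms went the other way, with 1 n14 cell (2.08%, 0.0527 to 11.1%) and 88 n2 cells (21.3%, 17.5 to 25.6%). The receptors lay with Nms. Vipr2 was in 2 n14 cells (4.17%, 0.509 to 14.3%) and 115 n2 cells (27.8%, 23.6 to 32.4%). Prokr2 was in 0 of 48 n14 cells, where a limit of 3 counts allows a share of up to 6.25% (exact upper bound 7.4%), and in 126 n2 cells (30.5%, 26.1 to 35.2%). Rgs16 was in 16 n14 cells (33.3%, 20.4 to 48.4%) and 169 n2 cells (40.9%, 36.1 to 45.8%), and these intervals overlap. In n14 there were only 10, 7 and 3 cells in KO1, KO2 and KO3, and 16, 5 and 7 in WT1, WT2 and WT3. A share of n14 in 1 library thus rests on very few cells. In each of the 6 libraries the share in n14 was above that in n2 for Vip and for Grp, and below it for Nms and for Prokr2. For Vipr2 it was below in 5 libraries and equal in WT2, where 1 of 5 n14 cells held it, and for Rgs16 it was above in 3 and below in 3. The n14 cells were deeper, with a median of 1713 UMIs against 1177 in n2. With cells thinned to 1000 UMIs (41 n14 and 252 n2 cells) the shares were 39.0% and 11.9% for Vip, 22.0% and 0.794% for Grp, 0 and 17.5% for Nms, 2.44% and 24.6% for Vipr2, and 0 and 27.0% for Prokr2. The clusters come from the same cells, so no test is given.

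**Figure D3:**
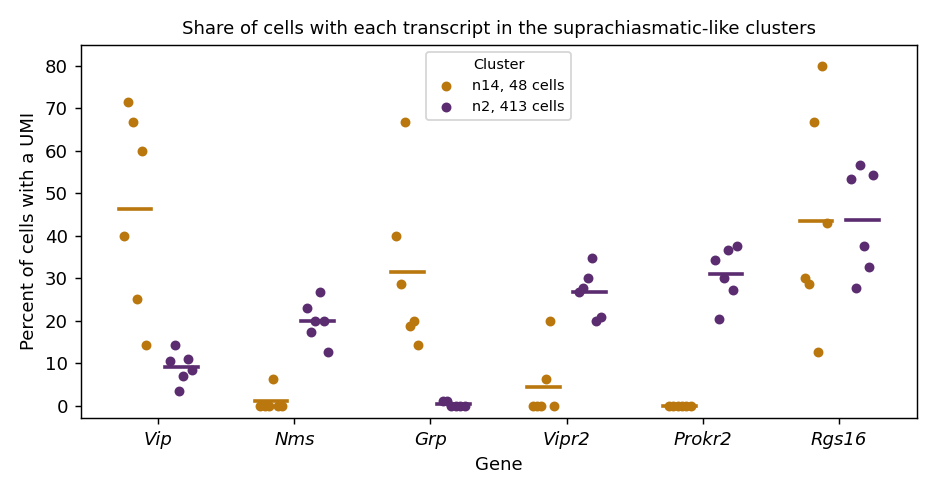
Percent of cells with a UMI of each gene in the suprachiasmatic-like clusters n14 (left of each pair) and n2 (right), each point 1 of 6 libraries and each line their mean. Vip and Grp sit higher in n14, Nms, Vipr2 and Prokr2 higher in n2, and Rgs16 overlaps. Each n14 point rests on 3 to 16 cells.

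Over all neurons, Vip, Nms, Vipr2, Prokr2 and Rgs16 were found together in more cells than their separate frequencies give, and Grp joined only Vip. Expected numbers here take all neurons of a library together, while most UMIs of Vip, Nms, Vipr2, Prokr2 and Rgs16 lay in suprachiasmatic-like cells. The excess thus includes this shared cell type, and 34 of the 36 cells with both Nms and Vipr2 were suprachiasmatic-like. Of 3093 neurons, 525 held at least 1 of the 6 transcripts and 189 held 2 or more. Vip and Nms were together in 18 cells where 2.51 were expected from their frequencies in each library. Vip and Grp were together in 9 cells against 1.39 expected. Nms was with Vipr2 in 36 cells against 4.73, with Prokr2 in 31 against 5.92 and with Rgs16 in 42 against 8.97. Cells with Nms and either receptor gene were thus 5.24 and 7.62 times the number expected, and those with Nms and Rgs16 4.68 times. Vipr2 and Prokr2 shared 48 cells against 8.22, Vipr2 and Rgs16 61 against 12.4, and Prokr2 and Rgs16 72 against 15.6. Grp and Nms shared 2 cells against 1.83, Grp and Vipr2 3 against 2.64, Grp and Prokr2 4 against 3.14 and Grp and Rgs16 8 against 5.06. For Grp with any member but Vip the observed number was thus close to the expected one.

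The test of co-expression was on the log2 odds ratio per library over all neurons, so it too includes the shared cell type. The ratio had 0.5 added to each cell number, and the test was an exact sign-flip permutation over the 6 libraries. It passed for 10 of 15 pairs, each with 6 of 6 libraries above 0 (exact p = 0.0312, the smallest possible, adjusted p = 0.0469). These were all pairs among Vip, Nms, Vipr2, Prokr2 and Rgs16 except Vip with Vipr2, and Vip with Grp. For Nms with Prokr2, WT3 held 0 shared cells, and its log2 odds ratio of 1.48 stood above 0 only through the added 0.5. With 9 pairs at the smallest exact permutation p the adjusted p was 0.0521, as below, so all 10 passes turned on that value. Mean log2 odds ratios of the 10 ran from 2.38 ± 1.32 for Vip with Prokr2 to 4.15 ± 1.41 for Vip with Nms (SD, n = 6 libraries). Vip with Vipr2 gave 2.25 ± 1.95 (exact permutation p = 0.0625, adjusted p = 0.0852), with 10 cells against 3.55 expected. Adding 0.5 lifts the ratio of rare pairs: with cells thinned to 500 UMIs, Nms and Grp shared 0 cells and still passed, at a mean log2 odds ratio of 3.65 (exact permutation, adjusted p = 0.0312). For this reason the difference between observed and expected cells was tested too, an alternative chosen after the data had been seen. There 9 pairs had all 6 libraries above expectation, at an exact permutation p of 0.0312 and an adjusted p of 0.0521, and 0 of 15 passed. Nms with Prokr2 was above in 5 of 6 libraries, since WT3 held 0 shared cells against 0.145 expected (exact permutation p = 0.0625). The 9 pairs had the same exact permutation p by both measures, and their adjusted p moved from 0.0469 to 0.0521. The call of co-expression was thus not made by this second measure, which differs from the first in the statistic as well as in the constant. The direction was the same in all 6 libraries for 9 pairs. Without the n15 cluster the numbers of passing pairs were again 10 by the log2 odds ratio and 0 by observed minus expected cells.

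Within the suprachiasmatic-like cells the excess was smaller, and Vip did not share it with Vipr2. Vip and Grp were together in 8 of 461 cells against 1.91 expected, above expectation in 6 of 6 libraries. Vip and Nms were in 17 against 11.3, Nms and Vipr2 in 34 against 23.2, and Vipr2 and Prokr2 in 47 against 32.2, each above in 5 of 6 libraries. In contrast, Vip and Vipr2, the peptide and its receptor, were together in 9 cells against 15 expected, above in 2 libraries and below in 4. Vip with Prokr2 gave 13 against 15.7 and Vip with Rgs16 25 against 23.3. Grp and Prokr2 met in 1 cell against 4.17, below expectation in 6 of 6 libraries, and Grp and Vipr2 in 1 against 3.82. All these expected numbers take n14 and n2 together, although the clusters differed in the members they held. Grp was in 13 n14 and 2 n2 cells, Prokr2 in 0 and 126, and Vipr2 in 2 and 115. Expected numbers within each cluster were not computed, so an excess or deficit here includes the difference between the clusters. No pair passed here after adjustment over 15 pairs, by either measure (smallest adjusted p = 0.156, exact permutation). Cells with at least 10 Vip UMIs numbered 36 in all neurons, of which 13 held Nms, 20 Rgs16, 6 Vipr2, 6 Prokr2 and 5 Grp. No neuron held all 6 transcripts, and 3 held 5, of which 2 were suprachiasmatic-like and 1 was the 104-UMI cell of KO3 in n15. That cell was also the only neuron of KO3 with both Vip and Vipr2. No pair's odds ratio passed a test between the genotypes (exact permutation, smallest adjusted p = 0.964). The nearest was Vipr2 with Rgs16, with 41 shared cells in KO and 20 in WT and log2 odds ratios of 4.36 ± 1.21 in KO and 2.78 ± 0.82 in WT (n = 3 libraries each, exact permutation p = 0.2).

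**Figure D4:**
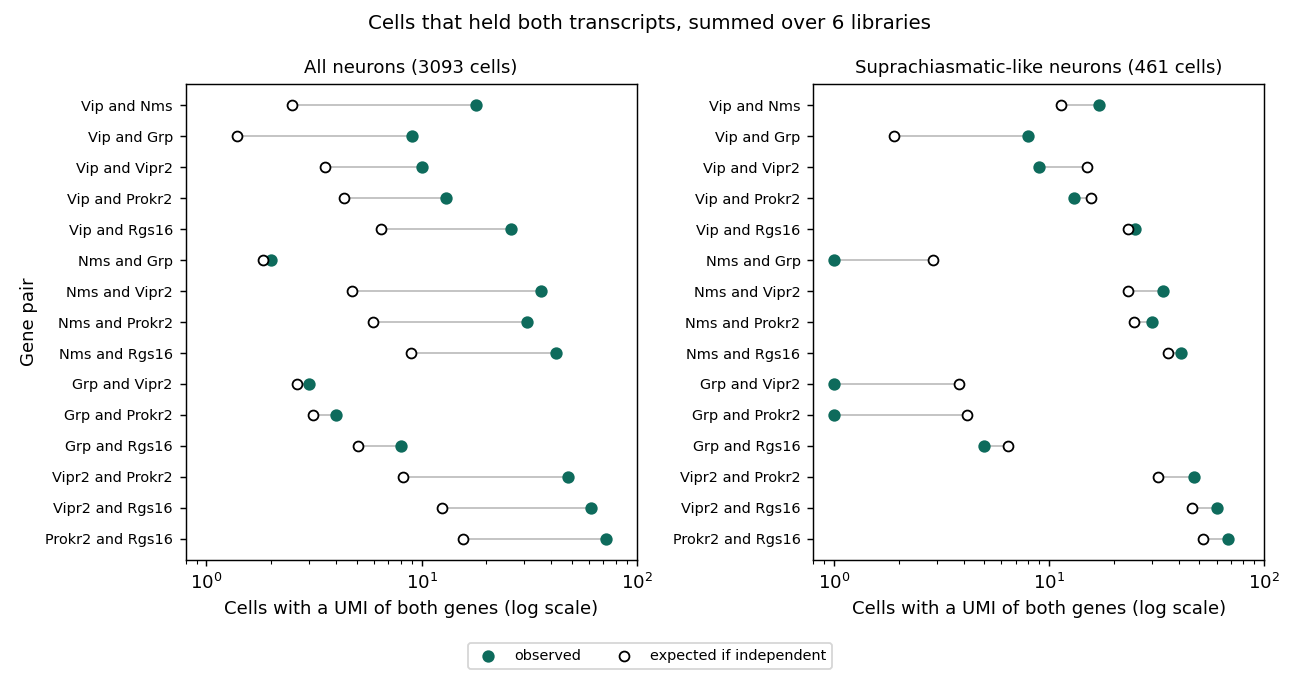
Number of cells (log axis) with a UMI of both genes of each pair, observed (filled) and expected from the frequencies within each library (open), in all neurons on the left and in suprachiasmatic-like neurons on the right. In all neurons 36 cells held Nms and Vipr2 against 4.73 expected, while in suprachiasmatic-like neurons Vip and Vipr2 were together in fewer cells than expected, with 9 against 15.

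Across 31 clusters of at least 50 cells, Vip, Nms, Vipr2 and Prokr2 had the levels most like each other among genes with at least 100 UMIs, but the size limit leaves out n14 (48 cells). On the scale of log2(CPM + 10), where CPM is counts-per-million of all UMIs of a cluster, Pearson's r was 0.91 for Vip and Nms, 0.88 for Vip and Vipr2 and for Nms and Vipr2, and 0.79 to 0.82 between Prokr2 and these 3. The clusters share libraries, and 1 cluster, n2, holds most of these UMIs, so r is a description. In n14, Vip stood at 3330 CPM, Grp at 547, Vipr2 at 22.3, Nms at 11.2 and Prokr2 at 0. With n14 added, r was 0.75 for Vip and Nms, 0.77 for Vip and Vipr2, 0.50 for Vip and Prokr2 and 0.67 for Vip and Grp, while Nms and Vipr2 had 0.89. The likeness of Vip to the other members thus changed with that 1 cluster, and that of Nms to Vipr2 hardly did. Over the 31 clusters, next for Vip came Plch2 (0.70), a phospholipase C gene, and Fbxl21 (0.69), which encodes an F-box protein that acts on cryptochromes. Nms had Fbxl21 (0.72) and Creb3l1 (0.70) after the members, Vipr2 had Relt (0.76) and Plch2 (0.75), and Prokr2 had Chodl (0.76) and Fam196a (0.71). Rgs16 was less alike, with 0.64 for Nms and for Nnmt and 0.62 for Creb3l1, Igfbp5 and Wif1. Over the 31 clusters Grp had r of 0.08 to 0.20 to the other members, and with n14 added 0.03 to 0.67, the highest with Vip. Without n14 its most similar genes were Dlx1 (0.80), Dlx2 (0.79), Dlx6os1 (0.78) and Dlx5 (0.75), homeobox genes of GABAergic forebrain neurons and an RNA from their locus, and Slc18a2 (0.76), the vesicular monoamine transporter.

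The comparison of KO with WT asked whether these transcripts differed when IDOL was lacking, and no member passed in any of the 3 sums tested. Each library's UMIs were summed over its cells, over its neurons and over its suprachiasmatic-like cells. The sums were tested with edgeR's quasi-likelihood test, with Benjamini-Hochberg adjustment over all genes tested. Among all genes tested, 0% passed over all cells, 0.0408% in neurons and 0% in suprachiasmatic-like cells, so a count of 0 of 6 members stands close to that background. Mylip, the deleted gene, itself passed only in neurons (edgeR adjusted p = 0.011). Over all cells it fell short, at -6.04 on the log2 scale (edgeR adjusted p = 0.0808). In suprachiasmatic-like cells it had 1 UMI, in WT1. The test thus missed this loss over all cells, so not passing does not show that a member was unchanged. At an unadjusted p under 0.05 the shares of all genes were 2.01%, 4.35% and 5.15%, and groups did not overlap for 7.44%, 10.1% and 9.91%. Of the members, 1 of 6 over all cells (Grp), 2 of 6 in neurons (Vip and Grp) and 1 of 6 in suprachiasmatic-like cells (Vip) had an unadjusted p under 0.05. Each value below is CPM of all UMIs in the sum, and a log2 fold change is KO over WT ± SE. In a sum, fewer cells of a type and less RNA per cell cannot be told apart.

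Vip was the member with the lowest fold change. In neurons it stood at 184, 250 and 124 CPM in KO1, KO2 and KO3, against 157, 415 and 277 in WT1, WT2 and WT3. The groups overlapped, since WT1 lay below KO1 and KO2 (log2 fold change -0.56 ± 0.27, edgeR adjusted p = 0.986). In KO3, 104 of the UMIs came from 1 cell of n15, and without that cluster KO3 had 12 Vip UMIs, or 13 CPM, and the log2 fold change was -0.87 (edgeR adjusted p = 0.985). Within suprachiasmatic-like cells Vip stood at 1140, 2130 and 288 CPM in KO, against 1710, 3520 and 3610 in WT. All but KO2 among the KO libraries lay below all WT libraries, and KO2 lay above WT1 (-1.17 ± 0.32, edgeR adjusted p = 0.956). This value turned on single libraries. It passed without KO2 (-1.81, edgeR adjusted p = 3.5e-06) and without WT1 (-1.47, adjusted p = 0.000307), and without KO3 it was -0.81 (edgeR adjusted p = 0.996). The 288 CPM of KO3 rest on 12 UMIs in 33 cells, and its 104-UMI cell is not among them. In WT3, 1 cell held 135 of the 184 Vip UMIs of its suprachiasmatic-like cells. The share of neurons with a Vip UMI was 2.38 ± 1.31% in KO and 2.33 ± 1.15% in WT (exact permutation p = 1.0). In neurons with a Vip UMI its level per 10000 UMIs was 101 ± 12.5 in KO and 123 ± 27.0 in WT (exact permutation p = 0.6). KO3 had 4 such neurons, the n15 cell among them. At a matched depth of 1000 UMIs per cell the level was 101, 127 and 92.5 in KO1, KO2 and KO3, against 141, 151 and 203 in WT1, WT2 and WT3. There the groups did not overlap, at the smallest p that 3 against 3 libraries allow (exact permutation p = 0.1). Adjusted over the members, this p was 0.4. Before thinning, WT3 had only 4 neurons with a Vip UMI, and the richest held 135. How often other genes keep the groups apart on this measure was not tested.

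Nms, the peptide most confined to suprachiasmatic-like cells in its UMIs, did not pass in either sum. In neurons it stood at 42.4, 16.5 and 7.48 CPM in KO1, KO2 and KO3, against 22.9, 37.6 and 19.5 in WT1, WT2 and WT3. The KO values ran both above and below all WT values (-0.13 ± 0.40, edgeR adjusted p = 0.995), and the sign turned without KO2, KO3 or WT2. In suprachiasmatic-like cells Nms had 268, 158 and 144 CPM in KO, against 249, 327 and 196 in WT (-0.31 ± 0.31, edgeR adjusted p = 0.966), again with overlap.

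Grp was the only member whose groups did not overlap in neurons. It stood at 27.7, 32.1 and 27.8 CPM in KO1, KO2 and KO3, against 13.3, 4.34 and 22.5 in WT1, WT2 and WT3 (1.15 ± 0.34, edgeR adjusted p = 0.951). The UMIs behind these were 36, 39 and 26 in KO, against 28, 3 and 15 in WT. All 3 KO libraries were thus higher but on small counts, and 10.1% of all genes had groups that did not overlap. The richest single neuron held 11, 10 and 12 of the Grp UMIs in KO1, KO2 and KO3, against 5, 1 and 14 in WT1, WT2 and WT3. Whether the groups stay apart without these cells was not tested. Grp was found in 2.61%, 2.34% and 1.97% of KO neurons, against 1.59%, 0.896% and 0.658% of WT neurons (exact permutation p = 0.1, the smallest possible). Adjusted over the members, this p was 0.6. At matched depths of 500 UMIs the shares were 0.988 ± 0.447% in KO and 0.230 ± 0.398% in WT and the groups overlapped, while at 1000 UMIs they did not. Without the cluster whose cells all came from KO2, the log2 fold change was 1.03 (edgeR adjusted p = 0.985). In suprachiasmatic-like cells Grp had 23, 4 and 2 UMIs in KO, against 7, 1 and 14 in WT, the last 14 from 1 cell (0.05 ± 0.59, edgeR adjusted p = 0.993). The Grp sums of all neurons thus did not overlap between the groups, as for 10.1% of all genes, and those of suprachiasmatic-like cells overlapped.

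Vipr2 and Prokr2, the receptors, differed by less than the spread between libraries in neurons. Vipr2 stood at 29.3, 32.1 and 15 CPM in KO1, KO2 and KO3, against 33.8, 24.6 and 12.0 in WT1, WT2 and WT3 (0.02 ± 0.32, edgeR adjusted p = 0.998). In suprachiasmatic-like cells it had 184, 276 and 264 CPM in KO, against 317, 196 and 118 in WT (-0.01 ± 0.31, edgeR adjusted p = 0.997). Each KO value for Vipr2 thus lay inside the WT range. Prokr2 had 48.5, 31.3 and 16.0 CPM in KO neurons, against 43.8, 44.8 and 28.4 in WT neurons (-0.26 ± 0.30, edgeR adjusted p = 0.986). In suprachiasmatic-like cells Prokr2 had 283, 221 and 240 CPM in KO, against 365, 314 and 333 in WT. All 3 KO values were lower than every WT value (-0.41 ± 0.29, edgeR adjusted p = 0.966), and groups did not overlap for 9.91% of the genes tested there.

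Rgs16, the G-protein regulator, was highest in KO1 in neurons. It stood at 112, 49.5 and 67.4 CPM in KO1, KO2 and KO3, against 45.7, 70.8 and 59.9 in WT1, WT2 and WT3 (0.46 ± 0.26, edgeR adjusted p = 0.986), and KO2 and KO3 lay within the WT range. In suprachiasmatic-like cells it had 661, 354 and 887 CPM in KO, against 349, 615 and 608 in WT (0.30 ± 0.29, edgeR adjusted p = 0.966). Over all cells the log2 fold change was 0.70 ± 0.36 (edgeR adjusted p = 1.0), and 0.28 without KO1. Fibroblasts, of which 71 of 119 were in KO3, held 37 of the 124 Rgs16 UMIs of that library, and their part in the result over all cells was not tested beyond the sum over neurons.

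**Figure D5:**
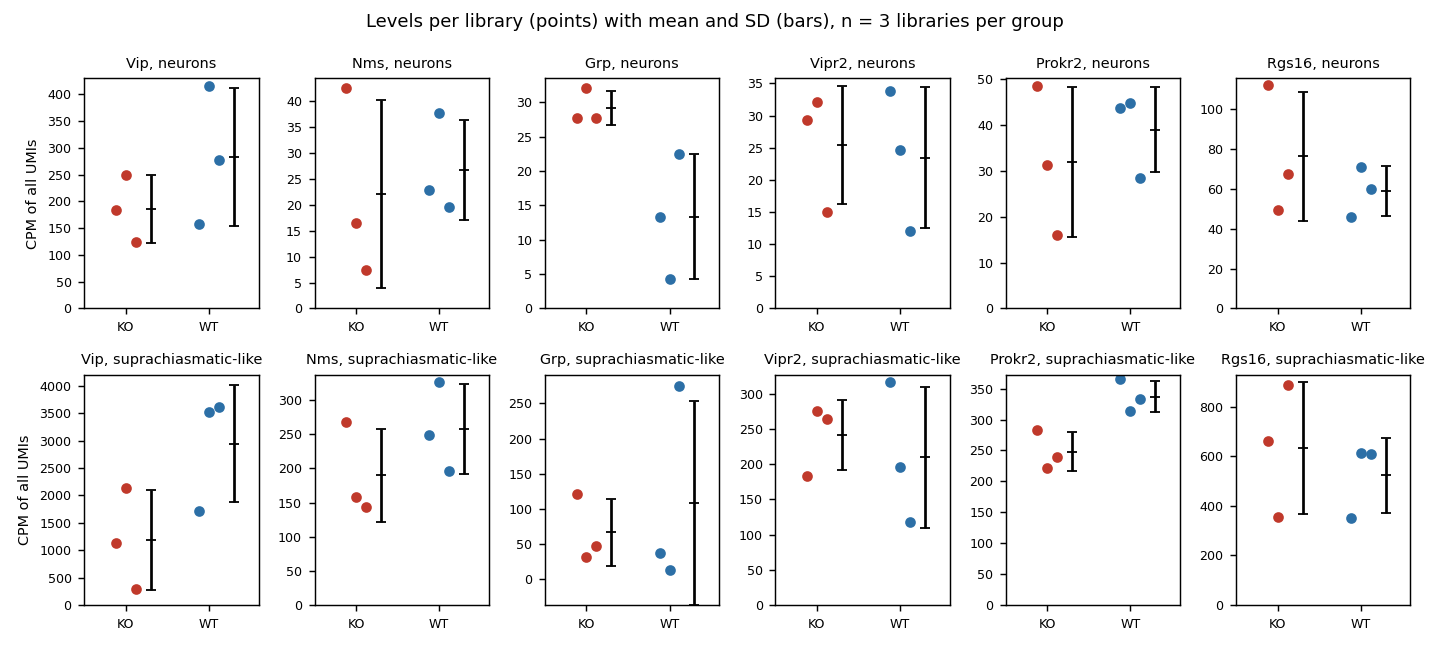
CPM of each gene per library in neurons (top row) and suprachiasmatic-like neurons (bottom row), KO left of WT, with the mean and SD of 3 libraries beside the points. Grp in neurons (27.7 to 32.1 in KO, 4.34 to 22.5 in WT) and Prokr2 in suprachiasmatic-like neurons (221 to 283 in KO, 314 to 365 in WT) are the panels in which the groups do not overlap.

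Other genes of the same system gave no call in neurons either. Of 17 further peptides and receptors of the nucleus, 10 were tested and 0 passed, with 6 fold changes above 0 and 4 below (median log2 fold change 0.15, against 0 over all genes tested). Cck, cholecystokinin, had 0.51 ± 0.23 (edgeR adjusted p = 0.986) and Penk, proenkephalin, -0.42 ± 0.23. Of 11 transcription factors of the nucleus, 10 were tested, 9 above 0 and 1 below (median 0.30), and 0 passed. Zfhx3, a regulator of circadian rhythm, had 0.37 ± 0.18 and Six3, a homeobox factor of the forebrain, 0.41 ± 0.22. Among 15 other RGS genes, 11 were tested, 3 above 0 and 8 below (median -0.09), and 0 passed. Rgs19 had -0.35 ± 0.23 and Rgs12 0.39 ± 0.27. Of 25 genes of G-protein and cyclic AMP signalling, 24 were tested, 22 above 0 and 2 below (median 0.18), and 0 passed. Gnaq, the Gq subunit, had 0.35 ± 0.17 and Gnal, a Gs-like subunit, 0.35 ± 0.18 (edgeR adjusted p = 0.986 for each). At an unadjusted p under 0.05 there was 1 gene each in the peptide, transcription factor and signalling lists (Cck, Zfhx3 and Gnaq, all higher in KO) and 0 among the RGS genes. Of all 9804 genes tested in neurons, 4.35% had an unadjusted p under 0.05, 253 of them higher in KO and 173 lower. Fold changes were above 0 for 4906 of these genes and below 0 for 4898. In suprachiasmatic-like cells fewer genes of the lists were tested, and 0 passed. There the signalling list had 7 fold changes above 0 and 5 below (median 0.045), and the transcription factors 5 and 2 (median 0.387). The peptides and receptors had 1 and 2, with Cck at -0.31 ± 0.365, and 1 RGS gene was tested. No list was tested as a set.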

How the data were processed

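Hypothalamus was measured by Drop-seq in 6 libraries, 3 KO and 3 WT. The authors deposited 1 table of UMI counts, not normalized, with genes in rows and cells in columns. The submitters' processing notes name bcl2fastq, STAR 2.5.0c, mm10 and GRCm38. The counting program, its annotation and its use of strand are not given in the sources used here, so reads of overlapping or antisense genes cannot be told apart. The submitters state that libraries were prepared over 2 days with the groups mixed, and the day of a library was not in the labels.

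Cells had at least 300 genes and at most 20% mitochondrial UMIs (9449 of 13994 barcodes). Scrublet in scanpy 1.11.5 marked 120 doublets (1.27%), which were left out. Counts without the 6 members were clustered (2000 variable genes, 30 components, 15 neighbours, Leiden resolution 1), mixed clusters were split again, and clusters were named where at least 3 markers stood 4-fold over the median cluster. Neurons were clustered again, and suprachiasmatic-like means at least 3 of 10 suprachiasmatic markers at 4-fold over the median neuron cluster. 

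Counts were summed per library and tested with edgeR 4.0.16 (TMM, filterByExpr with the members and Mylip always kept, quasi-likelihood F-test) under R 4.3.3. Benjamini-Hochberg adjustment ran over all genes, with a threshold of 0.05. The SE was taken from the fold change and the F statistic. Shares, UMIs per cell and odds ratios were tested over libraries by two-sided exact permutation (scipy 1.17.1), where 3 against 3 libraries allow no p below 0.1. The scripts were tested on simulated data.

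Named genes were the 6 members, Mylip, from each of 4 lists every passing gene and the 2 with the smallest p in neurons, and the 5 genes most like each member. The clusters and cells singled out for Grp, Vip and Rgs16 were chosen after their values were seen. Members, lists and tests were chosen with earlier results of these data known. Of the symbols, 93.9% matched GENCODE M21. Alternatives were DESeq2 1.42.0, no gene filter, a replicate block, each library left out, other cell filters and clusterings, thinned depth, and 5 alternatives added after the data were seen.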

Additional observations from a re-analysis of the deposited data

How the results depend on the processing

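Passing genes numbered 0 over all cells, 4 in neurons and 0 in suprachiasmatic-like cells, and no member was among them. Over all cells the number was 4 with DESeq2, 1 with no gene filter, 1 with every deposited barcode and 0 to 1 with a library left out. In neurons it was 2 with DESeq2, 24 with no gene filter, 2 with robust settings and 1 to 11 with a library left out, and in suprachiasmatic-like cells 1 with no gene filter and 0 to 2 with a library left out. With the replicate block the numbers were 1, 10 and 1, the last being Vip in suprachiasmatic-like cells (-1.28, edgeR adjusted p = 0.00498). The labels do not say whether the replicate numbers pair the samples. Over all cells, correlations of deviations were -0.15 to 0.25 between same-numbered libraries and -0.36 to 0.15 between differently numbered ones. In suprachiasmatic-like cells they were -0.06 to 0.09 between same-numbered libraries and -0.07 to 0.13 between differently numbered ones. These few values do not decide whether the numbers pair the samples. The Vip value in suprachiasmatic-like cells had adjusted p-values from 3.5e-06 to 0.998 over its alternatives, past the threshold with the block and without KO2 or WT1, and stayed below 0 in each (-1.81 to -0.81). The Grp value in neurons stayed above 0 in each alternative (0.86 to 1.47, adjusted p 0.113 to 1.0).

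Several values near 0 changed sign, and the cause was not tested. Grp in suprachiasmatic-like cells was -0.56 with DESeq2, -0.09 with at least 500 genes per cell, -0.07 with doublets kept, -0.01 at Leiden resolution 0.5 and -1.16 to 1.37 with a library left out. Vipr2 there was 0.09 with DESeq2, 0.03 with the replicate block and -0.21 to 0.54 with a library left out, and in neurons -0.10 with at least 500 genes per cell and -0.22 to 0.50. With a library left out, Nms in neurons ran from -1.06 to 0.23, Prokr2 in neurons from -0.72 to 0.02, and the KO minus WT difference in the percent of neurons with Vip from -0.454 to 0.803.

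Of the co-expression pairs, 0 passed in suprachiasmatic-like cells only, 0 with a library left out (the smallest p of 5 libraries is 0.0625) and 0 by observed minus expected cells, whether at own depth, thinned to 500 or to 1000 UMIs, in suprachiasmatic-like cells or with the n15 cluster left out. Thinned to 500 or 1000 UMIs, or with at least 2 UMIs, the log2 odds ratio passed for 14 or 15 pairs, and for Nms with Grp thinned to 500 UMIs it was 3.65 with 0 shared cells, which is the added constant itself. In suprachiasmatic-like cells the log2 odds ratio was below 0 for Vip with Vipr2 (-0.843) and Prokr2 (-0.136) and for Grp with Vipr2 (-0.491), Prokr2 (-0.767) and Rgs16 (-0.116). Observed minus expected cells there were -6.02 and -2.73 for the Vip pairs, -1.89 for Grp with Nms, -2.82 with Vipr2, -3.17 with Prokr2 and -1.45 with Rgs16. Thinned to 500 UMIs they were -0.37 for Grp with Nms, -0.447 with Prokr2 and -0.828 with Rgs16, and thinned to 1000 UMIs -0.183 with Vipr2 and -0.325 with Prokr2. With the n15 cluster left out they were -0.816 for Grp with Nms and -0.619 with Vipr2. Depth limits these statements, since 5 of the 6 transcripts had a median of 1 UMI in the cells that held them.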
